A study of Mus musculus with 61 samples.

Results

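The step in which mouse embryos leave the 2-cell programme was measured as the change in polyadenylated RNA at 48-54hpi against 30-36hpi (hpi, hours post insemination). It rests on 6 of the 61 samples of the series, 3 libraries at 48-54hpi and 3 at 30-36hpi. The libraries were chosen by the window named in their titles, and all genes were followed: 16234 of 24551 genes had enough reads to be tested. The embryos of both groups were WT, were made by in vitro fertilisation of oocytes from superovulated females, and were cultured for 6 h before collection with 2 mM 4-thiouridine (4SU), a uridine analog that enters newly made RNA. The design text gives 10 embryos per sample, RNA was alkylated, and cDNA was made by a modified form of Smart-seq2, a method that primes on poly(A) tails. The labels name windows and not cell numbers, and do not say whether the 3 libraries of a group came from separate matings, so a p-value rests only on how far these libraries spread. The deposited counts may include RNA made before labelling, since the labels do not say whether reads with T-to-C conversions were parted from the others. Libraries of MII oocytes and of the 7 other windows, also WT and 4SU-treated, and 3 libraries each labelled Klf17 KO and ctrl (WT) are used only beside this comparison. Starts of the 2 windows lie 18 h apart, whereas the windows before them follow each other every 6 h.

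After fertilisation the embryo first lives on RNA stored in the oocyte. In the mouse the main wave of genome activation falls in the 2-cell stage, when a short-lived set of genes is switched on together with genes of the general machinery of the cell. As development goes on, stored RNA is degraded, the 2-cell set is shut off, and the embryo takes up ribosome production, respiration, compaction and the first choice of lineage. Because each library pools whole embryos, fewer cells of a type and less RNA per cell cannot be told apart.

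Total gene counts were 11437201, 10650021 and 9715050 reads at 48-54hpi, against 7488257, 10259007 and 7623126 reads at 30-36hpi. Replicates correlated across genes at r = 0.984 to 0.986 at 48-54hpi and 0.976 to 0.977 at 30-36hpi (log2 of CPM + 1, genes not being independent replicates), and no pair agreed within sampling noise. The 10 most abundant genes held 4.61% to 4.86% of reads at 48-54hpi and 2.71% to 2.81% at 30-36hpi. Levels are given as CPM (counts scaled to a common library total, adjusted by edgeR's TMM factors), as mean ± SD (n = 3) where 1 value per group is printed. The choice of scaling matters in this step: the median log2 fold change of all genes tested was -0.19 with TMM factors, -0.25 with DESeq2 size factors, -0.47 with TMM factors taken against another reference library, and -0.67 with total counts. Changes are therefore read against that median, and calls that hold under all 4 scalings are counted separately.

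Of the 16234 genes, 10064 (62%) passed an adjusted p of 0.05 in edgeR's quasi-likelihood test. At 48-54hpi 4653 genes (28.7%) were higher and 5411 (33.3%) were lower than at 30-36hpi, so that 46.2% of the calls were rises. With total counts that share was 32.5%. All 5411 falls held under all 4 scalings (33.3%), whereas 3352 of the rises did (20.6%). The other scalings all gave a lower median than the main one, so rises could lose a call under them and falls hardly could. These counts, also those given by list, therefore do not show that falls were firmer than rises. With only the 6 libraries the median was -0.0734, and 4179 genes were called higher and 4477 lower. A change of at least 2-fold was called upward in 3501 genes (21.6%) and downward in 4550 (28%), and one of at least 8-fold upward in 755 (4.65%) and downward in 2049 (12.6%). The large changes were thus mostly losses. In 10300 genes (63.4%) the libraries of the groups did not overlap. That held for every gene below whose values are given and that was called, except mt-Co1.

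Among the largest falls were 2-cell-stage genes, a set that the embryo transcribes for a short time. Of the listed genes, 6 of 44 tested members were called higher and 31 lower (median log2 fold change -2.25). Zfp352, a zinc finger gene expressed almost only at this stage, measured 0.375, 1.56 and 4.24 CPM at 48-54hpi, against 121, 127 and 159 CPM at 30-36hpi (adjusted p = 5.79e-08, log2 fold change of -6.09, SE 0.66). The groups were more than an order of magnitude apart, and replicate 3 was the highest of the 48-54hpi libraries. Over the earlier groups Zfp352 averaged 0.286 CPM in MII oocytes, 845 CPM at 18-24hpi and 469 CPM at 24-30hpi. Zscan4d, from a cluster of 2-cell genes linked to telomere maintenance in mouse embryonic stem cells, measured 0.843, 0.833 and 1.23 CPM at 48-54hpi, against 21.8, 17.2 and 25.6 CPM at 30-36hpi (adjusted p = 6.98e-06, log2 fold change of -4.46, SE 0.69). Eif4e3, which encodes a cap-binding protein, measured 1.4, 1.35 and 4.35 CPM at 48-54hpi, against 50.2, 63.5 and 57.2 CPM at 30-36hpi (adjusted p = 1.02e-09, log2 fold change of -4.62, SE 0.41). Unlike Zfp352, Eif4e3 was highest in MII oocytes, at 846 CPM, and was already down to 286 CPM at 18-24hpi and 149 CPM at 24-30hpi. The whole list summed to 2628 CPM in MII oocytes, so part of its RNA was there before the 2-cell stage. The Usp17l deubiquitinase genes fell as well, with Usp17lb at 7.07 ± 3.94 CPM at 48-54hpi and 265 ± 135 CPM at 30-36hpi (adjusted p = 1.19e-05, log2 fold change of -5.21, SE 0.82). Zscan4, Usp17l, Tdpoz, Tcstv, Trim43 and Obox genes have near-identical copies, among which the counting of reads could be split, so values of single copies are uncertain.

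Not every member of that list fell. Trim43a, Trim43b and Trim43c, ubiquitin ligase genes of the cleavage stages, rose: Trim43a measured 1002, 1094 and 879 CPM at 48-54hpi, against 171, 187 and 215 CPM at 30-36hpi (adjusted p = 5.81e-09, log2 fold change of 2.38, SE 0.25). Trim43b measured 903, 1058 and 872 CPM at 48-54hpi, against 204, 184 and 225 CPM at 30-36hpi (adjusted p = 3.48e-07, log2 fold change of 2.21, SE 0.29). The 3 genes together held 2267, 2368 and 2016 CPM at 48-54hpi, against 463, 489 and 549 CPM at 30-36hpi. Sp110, Tbx3 and Hsf2 were called higher too. The sum of the whole list was 3346, 3296 and 2894 CPM at 48-54hpi, against 2969, 3139 and 3957 CPM at 30-36hpi. These sums overlapped between the groups although 31 members fell, and the Trim43 genes made up most of the list's reads at 48-54hpi. Duxf3, a member of the Dux family that starts the 2-cell programme, averaged 0.0372 ± 0.0644 CPM at 48-54hpi and 0.12 ± 0.0301 CPM at 30-36hpi and was not called, being near 0 in both groups.

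The OBOX homeobox genes split in the same way. Of the family, 2 of 8 tested members were called higher and 5 lower (median log2 fold change -3.45). Obox3 fell to 0.187, 0.833 and 0.335 CPM at 48-54hpi, against 22, 25.5 and 39.5 CPM at 30-36hpi (adjusted p = 1.63e-11, log2 fold change of -5.98, SE 0.56). Obox1, Obox2, Obox5 and Obox7 fell with it. Obox5 measured 6.18, 1.04 and 10.2 CPM at 48-54hpi, against 99.2, 84.5 and 111 CPM at 30-36hpi (adjusted p = 6.79e-06, log2 fold change of -4.09, SE 0.62), from 1409 CPM in MII oocytes. In contrast, Obox6 measured 1588, 1652 and 1602 CPM at 48-54hpi, against 703, 681 and 677 CPM at 30-36hpi (adjusted p = 0.000704, log2 fold change of 1.23, SE 0.29). Crxos, a related homeobox gene, measured 1143, 1200.0 and 1216 CPM at 48-54hpi, against 426, 456 and 391 CPM at 30-36hpi (adjusted p = 0.000249, log2 fold change of 1.48, SE 0.31). Obox8 averaged 254 ± 61.6 CPM at 48-54hpi and 310.3 ± 58.6 CPM at 30-36hpi and was not called. By summed level the family stood at 3068, 3079.6 and 3051 CPM at 48-54hpi, against 1557, 1633 and 1660.0 CPM at 30-36hpi, higher in every 48-54hpi library.

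The promoters of Zfp352 and Obox3 are shown because both genes were among the 12 largest falls and both hold a motif bound by paired-like homeobox proteins (GGATTA, which reads TAATCC on the other strand). They come from RefSeq on build GRCm38.p6, run 5′ to 3′ from 250 bases before to 50 bases after the gene's start, and carry that motif and the TATA box (TATAAA) in capitals. Zfp352 lies at chr4:90218570-90218869 on the plus strand and Obox3 at chr7:15639728-15640027 on the minus strand.
Zfp352: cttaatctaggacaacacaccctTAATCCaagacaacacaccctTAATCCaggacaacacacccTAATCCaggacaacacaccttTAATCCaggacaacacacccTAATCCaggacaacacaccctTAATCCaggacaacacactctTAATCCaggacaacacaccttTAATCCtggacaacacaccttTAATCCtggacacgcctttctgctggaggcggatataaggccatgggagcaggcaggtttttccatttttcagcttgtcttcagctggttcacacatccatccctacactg
Obox3: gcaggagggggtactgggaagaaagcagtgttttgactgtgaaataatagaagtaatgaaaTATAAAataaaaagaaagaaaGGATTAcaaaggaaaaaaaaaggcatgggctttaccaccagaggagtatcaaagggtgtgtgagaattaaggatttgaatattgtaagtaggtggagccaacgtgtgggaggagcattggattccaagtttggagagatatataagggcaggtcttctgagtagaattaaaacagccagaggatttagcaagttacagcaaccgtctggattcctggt
The Zfp352 promoter holds 9 copies of the motif on the other strand, one every 20 or 21 bases between 227 and 61 bases before the start. Of 9621 tested genes with 1 promoter in the table, 601 (6.25%) hold the motif, 4 hold 3 copies or more, and no other holds more than 4. Obox3 holds 1 copy 168 bases before its start and a TATA box 189 bases before it. Across all genes the motif stood in 6.21% of the promoters of genes that were higher at 48-54hpi and in 6.03% of those that were lower, which is close to the 6.25% of all promoters. A match describes letters in this window and not a bound site.

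Most oocyte and maternal-effect genes were lower as well. Of the oocyte and maternal-effect genes, 3 of 58 tested members were called higher and 51 lower (median log2 fold change -3.55; 2 and 51 under all 4 scalings). Their summed level was 3684, 3691 and 4205 CPM at 48-54hpi, against 10664, 10868 and 11319.6 CPM at 30-36hpi, lower in every 48-54hpi library. Spin1, a reader of methylated histone H3 that is abundant in oocytes, measured 120.3, 86.2 and 218 CPM at 48-54hpi, against 2123, 2060.1 and 2304 CPM at 30-36hpi (adjusted p = 4.88e-08, log2 fold change of -3.94, SE 0.42). Gdf9 and Bmp15, growth factors of the oocyte, fell: Gdf9 measured 25.1, 29.5 and 31.4 CPM at 48-54hpi, against 283, 324 and 404 CPM at 30-36hpi (adjusted p = 2.86e-07, log2 fold change of -3.56, SE 0.43). Bmp15 measured 9.83, 2.08 and 25.7 CPM at 48-54hpi, against 336, 276 and 314 CPM at 30-36hpi (adjusted p = 7.12e-05, log2 fold change of -4.63, SE 0.85). Oog3, of an oocyte-specific gene family with close copies, measured 71.5, 55.1 and 121 CPM at 48-54hpi, against 1751, 1759 and 1788 CPM at 30-36hpi (adjusted p = 0.000233, log2 fold change of -4.42, SE 0.90), and the near-identical pair Omt2a and Omt2b showed log2 fold changes of -4.16 and -4.01. Btg4, the adaptor that brings the deadenylase to maternal mRNA, measured 7.68, 6.98 and 29 CPM at 48-54hpi, against 309.9, 287 and 289 CPM at 30-36hpi (adjusted p = 5.53e-05, log2 fold change of -4.36, SE 0.78). Wee2, the oocyte kinase that holds Cdk1 inactive, averaged 6.89 ± 4.01 CPM at 48-54hpi and 184 ± 12.9 CPM at 30-36hpi (adjusted p = 2e-06, log2 fold change of -4.75, SE 0.65). Zp3, of the zona pellucida, fell less and averaged 85.9 ± 9.67 CPM at 48-54hpi and 123 ± 4.49 CPM at 30-36hpi (adjusted p = 0.00339, log2 fold change of -0.52, SE 0.15).

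In the oocyte list 3 members rose instead. Khdc3, a subunit of the subcortical maternal complex, measured 203, 188 and 251 CPM at 48-54hpi, against 13.5, 15.3 and 15.4 CPM at 30-36hpi (adjusted p = 9.06e-16, log2 fold change of 3.86, SE 0.23), above its 17.2 CPM in MII oocytes. Dppa3, which protects DNA methylation in the early embryo, measured 2479.7, 2613 and 2615 CPM at 48-54hpi, against 1540.2, 1526 and 1499.9 CPM at 30-36hpi (adjusted p = 3.44e-08, log2 fold change of 0.76, SE 0.10). Nlrp4c rose with TMM factors (adjusted p = 0.00556, log2 fold change of 0.70, SE 0.22) but not under all 4 scalings.

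The 12 largest falls by fold also held genes of other roles. Rundc3b measured 0, 0 and 0.446 CPM at 48-54hpi, against 44.7, 22.1 and 35.7 CPM at 30-36hpi (adjusted p = 1.35e-16, log2 fold change of -7.83, SE 0.46). Adarb2, an RNA-binding relative of the adenosine deaminases, measured 0.281, 0.104 and 0.893 CPM at 48-54hpi, against 57.6, 50.6 and 50.8 CPM at 30-36hpi (adjusted p = 1.67e-16, log2 fold change of -6.96, SE 0.40). Gpm6a, a membrane glycoprotein gene, measured 0.0937, 0.521 and 0.781 CPM at 48-54hpi, against 50.0, 35.6 and 49.2 CPM at 30-36hpi (adjusted p = 1.2e-14, log2 fold change of -6.61, SE 0.41). In each of them the 48-54hpi libraries lay below 1 CPM. Cobl, an actin nucleator gene, had 3 reads in all at 48-54hpi and averaged 0.0971 ± 0.0938 CPM at 48-54hpi and 20.6 ± 5.86 CPM at 30-36hpi, so no fold is given. Ccnjl, Antxr2, Arhgap15, Adm2, Frg2f1 and Rfpl4b, of which Ccnjl is a listed cyclin and Rfpl4b a listed oocyte gene, were also among the 12 largest falls.

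By CPM, Mdm4, Spin1, Oog3, Ccdc6, Gpbp1, Omt2a, Omt2b and Esco1 fell most of the genes ranked by the naming rule. Mdm4, an inhibitor of p53, measured 196, 179.9 and 206 CPM at 48-54hpi, against 2287, 2237 and 2189 CPM at 30-36hpi (adjusted p = 7.02e-18, log2 fold change of -3.53, SE 0.18). Ccdc6, a coiled-coil protein gene, measured 66.9, 81.6 and 108 CPM at 48-54hpi, against 1285, 1657 and 1743 CPM at 30-36hpi (adjusted p = 2.19e-19, log2 fold change of -4.19, SE 0.18). Esco1, an acetyltransferase of cohesin, measured 144, 152 and 137 CPM at 48-54hpi, against 1016, 1145 and 1014 CPM at 30-36hpi (adjusted p = 8.6e-20, log2 fold change of -2.87, SE 0.12). These 3 genes differed by little between replicates, and their groups were far apart.

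Replicate 3 of 48-54hpi was most often the highest of its group among the large falls. Among the 1594 genes that fell at least 8-fold and still had a read at 48-54hpi, replicate 3 was the highest library in 57.3%, replicate 1 in 24.3% and replicate 2 in 18.4%. The same shares over all genes tested were not computed. After scaling, replicate 3 also had the smallest library total (8959085, against 10677517 and 9604707), so a single read gives the highest CPM in replicate 3. With scaling factors kept, 4438 rises and 5133 falls were called without that library.

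**Figure D1:**
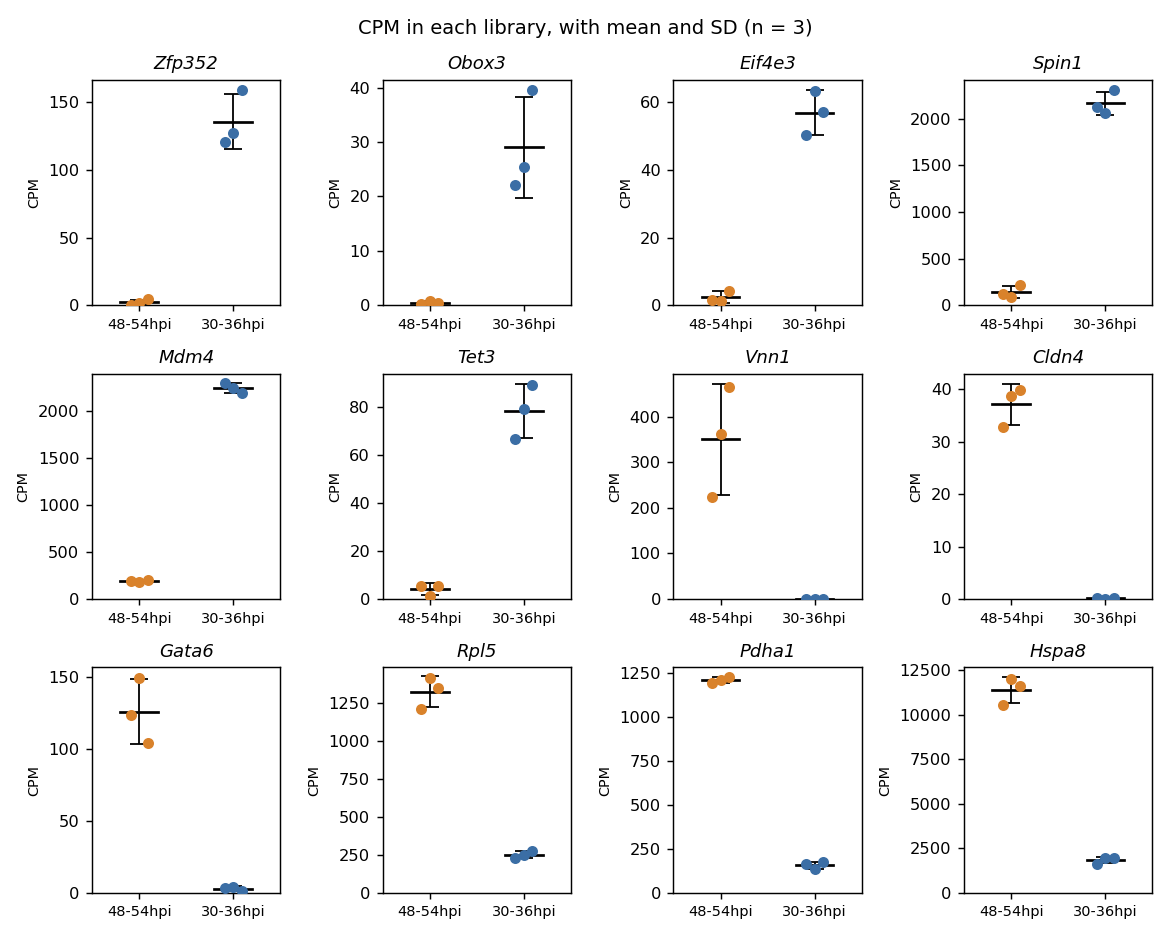
CPM of 12 genes in each library (y axes start at 0), 48-54hpi in orange and 30-36hpi in blue, with mean and SD (n = 3). Zfp352, Obox3, Eif4e3, Spin1, Mdm4 and Tet3 were lower and Vnn1, Cldn4, Gata6, Rpl5, Pdha1 and Hspa8 were higher at 48-54hpi, with no overlap between the groups in any of them.

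Histone methyltransferase and demethylase genes were mostly among the falls. Of the histone methyltransferases and demethylases, 7 of 42 tested members were called higher and 26 lower (median log2 fold change -0.71; 5 and 26 under all 4 scalings). Suv39h2, which methylates H3 lysine 9, measured 10.4, 8.02 and 14 CPM at 48-54hpi, against 74.1, 78.4 and 66.8 CPM at 30-36hpi (adjusted p = 1.34e-17, log2 fold change of -2.76, SE 0.15). Kmt2d, an H3 lysine 4 methyltransferase of enhancers, measured 4.12, 3.02 and 4.02 CPM at 48-54hpi, against 25.3, 32 and 29.9 CPM at 30-36hpi (adjusted p = 1.39e-12, log2 fold change of -2.96, SE 0.25). Nsd2, which methylates H3 lysine 36, measured 7.31, 4.69 and 6.14 CPM at 48-54hpi, against 43.6, 51.6 and 32.9 CPM at 30-36hpi (adjusted p = 3.04e-13, log2 fold change of -2.82, SE 0.22). Of the subunits of the Polycomb complex PRC2, Ezh2 (log2 fold change -0.74) and Suz12 (-0.65) fell and Eed rose (1.04). Kdm2b, a demethylase that recruits another Polycomb complex to CpG islands, rose to 251, 255 and 215 CPM at 48-54hpi, against 69.6, 71.4 and 97.1 CPM at 30-36hpi (adjusted p = 6.36e-11, log2 fold change of 1.60, SE 0.16). The arginine methyltransferase Prmt5 averaged 492 ± 54.6 CPM at 48-54hpi and 171 ± 12.4 CPM at 30-36hpi (adjusted p = 6.61e-09, log2 fold change of 1.52, SE 0.18). The chromatin remodelling genes showed no such lean: 12 of 33 tested members were called higher and 11 lower (median log2 fold change -0.10; 4 and 11 under all 4 scalings). Smarca2 fell (adjusted p = 2.62e-15, log2 fold change of -2.31, SE 0.15) and the chromatin assembly factor Chaf1b rose (adjusted p = 1.76e-08, log2 fold change of 1.58, SE 0.20).

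Histone variants went the other way. Of them, 7 of 10 tested members were called higher and 1 lower (median log2 fold change 0.75; 4 and 1 under all 4 scalings). H2afx, the variant that marks DNA breaks when phosphorylated, measured 126, 170.2 and 141 CPM at 48-54hpi, against 9.97, 9.59 and 9.2 CPM at 30-36hpi (adjusted p = 3.85e-18, log2 fold change of 3.92, SE 0.20). H2afy, which encodes macroH2A, measured 21.8, 23.5 and 26.2 CPM at 48-54hpi, against 2.72, 2.16 and 2.82 CPM at 30-36hpi (adjusted p = 2.25e-14, log2 fold change of 3.22, SE 0.23). Cenpa, the variant of centromeres, was the 1 member that fell (adjusted p = 1.17e-06, log2 fold change of -0.70, SE 0.11).

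Of the DNA methylation genes, which write, erase or read the mark, 5 of 19 tested members were called higher and 9 lower (median log2 fold change -0.25; 3 and 9 under all 4 scalings). Tet3, the oxidase that acts on the zygotic genome, measured 5.53, 1.46 and 5.58 CPM at 48-54hpi, against 66.4, 78.9 and 88.9 CPM at 30-36hpi (adjusted p = 4.06e-13, log2 fold change of -4.21, SE 0.29). It had averaged 890.2 CPM in MII oocytes. Zfp57, which maintains methylation at imprints, averaged 28.8 ± 8.88 CPM at 48-54hpi and 209 ± 64 CPM at 30-36hpi (adjusted p = 3.85e-13, log2 fold change of -2.86, SE 0.21). Uhrf1 averaged 16.3 ± 5.15 CPM at 48-54hpi and 35.6 ± 4.81 CPM at 30-36hpi (adjusted p = 5.8e-06, log2 fold change of -1.12, SE 0.19), and the de novo methyltransferase Dnmt3b was higher and averaged 28.9 ± 3.81 CPM at 48-54hpi and 11.4 ± 2.43 CPM at 30-36hpi (adjusted p = 2.06e-05, log2 fold change of 1.33, SE 0.25).

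Genes of the endoplasmic reticulum stress response fell more often than they rose: 4 of 27 tested members were called higher and 16 lower (median log2 fold change -0.67; 3 and 16 under all 4 scalings). Hspa5, the luminal chaperone BiP, measured 702, 608 and 688 CPM at 48-54hpi, against 1219, 1227 and 1274 CPM at 30-36hpi (adjusted p = 1.82e-07, log2 fold change of -0.90, SE 0.13). The sensor kinases Ern1 (adjusted p = 2.69e-06, log2 fold change of -1.30, SE 0.21) and Eif2ak3 (adjusted p = 4.46e-07, log2 fold change of -1.84, SE 0.28) were lower, and the third sensor, Atf6, was higher (adjusted p = 5.27e-08, log2 fold change of 1.63, SE 0.22). Ppp1r15a, which reverses the block on translation in that response, measured 47.8, 42.8 and 47.3 CPM at 48-54hpi, against 124, 128 and 184 CPM at 30-36hpi (adjusted p = 1.22e-09, log2 fold change of -1.66, SE 0.19). Asns, asparagine synthetase, rose and averaged 59.5 ± 9.31 CPM at 48-54hpi and 11.8 ± 2.45 CPM at 30-36hpi (adjusted p = 3.84e-06, log2 fold change of 2.33, SE 0.39).

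The most uniform rise was that of the protein synthesis machinery. Of the cytosolic ribosomal proteins, 81 of 81 tested members were called higher and 0 lower (median log2 fold change 1.56; 79 and 0 under all 4 scalings), and their fold changes ran from 0.65 to 2.86 on the log2 scale. Their summed level was 67509, 73483 and 73055 CPM at 48-54hpi, against 22385, 24235 and 23912 CPM at 30-36hpi. Its mean was 4026 CPM in MII oocytes, 12080.3 CPM at 24-30hpi and 79418 CPM at 70-76hpi. Rpl5, which carries 5S RNA in the large subunit, measured 1213, 1414 and 1348 CPM at 48-54hpi, against 229.9, 250.5 and 273 CPM at 30-36hpi (adjusted p = 1.62e-18, log2 fold change of 2.40, SE 0.12). Rpl7a, of the same subunit, measured 693, 837 and 844 CPM at 48-54hpi, against 105, 132 and 133 CPM at 30-36hpi (adjusted p = 1.87e-16, log2 fold change of 2.68, SE 0.16). Ribosomal protein genes have many processed pseudogenes, so reads of single members may be shared.

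Translation factors and tRNA synthetases followed. Of the translation factors, 44 of 46 tested members were called higher and 1 lower (median log2 fold change 1.35; 36 and 1 under all 4 scalings). Eef1a1, the elongation factor that delivers tRNA, measured 3101, 3712 and 3687 CPM at 48-54hpi, against 649, 704 and 922 CPM at 30-36hpi (adjusted p = 9.72e-14, log2 fold change of 2.21, SE 0.16). Eef1g, a subunit of its exchange factor, measured 1278, 1585 and 1480.0 CPM at 48-54hpi, against 92.8, 95.8 and 78.4 CPM at 30-36hpi (adjusted p = 4.59e-12, log2 fold change of 4.02, SE 0.28). Eif2s2, a subunit of initiation factor eIF2, measured 2992, 3386 and 3358 CPM at 48-54hpi, against 856, 810.2 and 745 CPM at 30-36hpi (adjusted p = 2.74e-18, log2 fold change of 2.01, SE 0.10). Eif1b was the 1 member that fell (adjusted p = 2.65e-06, log2 fold change of -0.77, SE 0.13). Of the aminoacyl-tRNA synthetases, 19 of 22 tested members were called higher and 0 lower (median log2 fold change 1.10; 16 and 0 under all 4 scalings). Of the ribosome biogenesis genes, whose products make and trim ribosomal RNA, 43 of 70 tested members were called higher and 4 lower (median log2 fold change 0.58; 26 and 4 under all 4 scalings). With total counts 26 of its members were higher and 19 lower. Npm1, nucleophosmin, measured 4494, 5101 and 5149 CPM at 48-54hpi, against 1510.3, 1767 and 1838 CPM at 30-36hpi (adjusted p = 2.92e-15, log2 fold change of 1.53, SE 0.10) and had already averaged 2110.3 CPM in MII oocytes.

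Most mitochondrial genes encoded in the nucleus rose, and none of those encoded in the mitochondrion did. Of the mitochondrial ribosomal proteins, 72 of 79 tested members were called higher and 2 lower (median log2 fold change 1.29; 59 and 2 under all 4 scalings). Mrps18a, of the small subunit, measured 134, 157 and 140.3 CPM at 48-54hpi, against 15.7, 20.0 and 13.8 CPM at 30-36hpi (adjusted p = 3.35e-14, log2 fold change of 3.12, SE 0.23). Mrps6 fell (adjusted p = 1.53e-05, log2 fold change of -1.08, SE 0.20). Of the oxidative phosphorylation genes, 69 of 76 tested members were called higher and 3 lower (median log2 fold change 1.51; 55 and 3 under all 4 scalings). Ndufa10, a complex I subunit, measured 181, 189 and 169 CPM at 48-54hpi, against 21.2, 24.6 and 24.7 CPM at 30-36hpi (adjusted p = 1.45e-14, log2 fold change of 2.93, SE 0.20). Sdha, of complex II, measured 87.6, 109 and 116 CPM at 48-54hpi, against 15.7, 20.0 and 15.7 CPM at 30-36hpi (adjusted p = 2.02e-15, log2 fold change of 2.59, SE 0.17). Of the mitochondrially encoded genes, 0 of 10 tested members were called higher and 6 lower (median log2 fold change -0.39). mt-Co1, a subunit of complex IV, measured 805, 633 and 796 CPM at 48-54hpi, against 1181, 1107 and 736 CPM at 30-36hpi (adjusted p = 0.00726, log2 fold change of -0.44, SE 0.14), so that replicate 3 of 30-36hpi lay within the 48-54hpi range. Mitochondrial transcripts held 0.657% to 0.807% of unscaled reads at 48-54hpi and 0.909% to 1.52% at 30-36hpi. After scaling the groups overlapped. The tested members summed to 8644, 7283 and 8446 CPM at 48-54hpi, against 11440, 10770 and 7240 CPM at 30-36hpi. The list's median of -0.39 stands beside -0.19 for all genes tested.

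Of the pyruvate dehydrogenase and citric acid cycle genes, 19 of 26 tested members were called higher and 3 lower (median log2 fold change 1.03; 18 and 3 under all 4 scalings). Pdha1, the catalytic subunit that feeds pyruvate into the cycle, measured 1192, 1210.0 and 1225 CPM at 48-54hpi, against 161, 136 and 176 CPM at 30-36hpi (adjusted p = 6.1e-18, log2 fold change of 2.94, SE 0.15). The 3 members that fell were Pdk1, Pdk2 and Pdk3, the kinases that inhibit pyruvate dehydrogenase. Pdk1 averaged 2.96 ± 1.22 CPM at 48-54hpi and 27.6 ± 4.47 CPM at 30-36hpi (adjusted p = 5.71e-12, log2 fold change of -3.21, SE 0.29). Pdk3 averaged 14.6 ± 3.36 CPM at 48-54hpi and 36.2 ± 9.81 CPM at 30-36hpi (adjusted p = 3.61e-08, log2 fold change of -1.30, SE 0.17).

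Of the glycolysis genes, 6 of 22 tested members were called higher and 7 lower (median log2 fold change -0.43; 4 and 7 under all 4 scalings). Both counts are near the 28.7% higher and 33.3% lower of all genes tested. The hexokinases that start the pathway rose. Hk1 measured 84.1, 58.7 and 59.3 CPM at 48-54hpi, against 5.34, 5.88 and 4.6 CPM at 30-36hpi (adjusted p = 3.5e-08, log2 fold change of 3.67, SE 0.47). Hk2 measured 24.1, 29.8 and 27 CPM at 48-54hpi, against 2.62, 3.02 and 3.97 CPM at 30-36hpi (adjusted p = 2.8e-11, log2 fold change of 3.07, SE 0.29). Ldhb, a subunit of lactate dehydrogenase, fell to 59.1, 56.6 and 66.9 CPM at 48-54hpi, against 326, 340.5 and 459 CPM at 30-36hpi (adjusted p = 1.28e-06, log2 fold change of -2.62, SE 0.35). The genes Pkm (adjusted p = 8.15e-06, log2 fold change of -0.99, SE 0.17), Eno1 (adjusted p = 0.00217, log2 fold change of -0.79, SE 0.22), Pgk1 and Tpi1 were lower too. In contrast, Aldoa (adjusted p = 7.32e-13, log2 fold change of 1.88, SE 0.15) and Pgam1 (adjusted p = 3.37e-08, log2 fold change of 1.51, SE 0.20) were higher. The glucose transporter Slc2a3 averaged 53.1 ± 1.25 CPM at 48-54hpi and 28.9 ± 3.94 CPM at 30-36hpi (adjusted p = 0.000818, log2 fold change of 0.88, SE 0.22) and missed the call under at least 1 scaling, and Slc2a1 averaged 3.66 ± 2.9 CPM at 48-54hpi and 6.67 ± 1.49 CPM at 30-36hpi and was not called. Among genes of nucleotide synthesis, Impdh2, the rate-limiting enzyme of guanine nucleotide synthesis, measured 4633, 4926 and 5052 CPM at 48-54hpi, against 844, 935 and 968 CPM at 30-36hpi (adjusted p = 4.42e-07, log2 fold change of 2.41, SE 0.31).

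Most protein turnover and folding genes were higher. Of the proteasome genes, 32 of 34 tested members were called higher and 2 lower (median log2 fold change 1.48). Psma7, of the core particle, measured 609.5, 729.7 and 703 CPM at 48-54hpi, against 162, 158 and 109 CPM at 30-36hpi (adjusted p = 4.63e-16, log2 fold change of 2.25, SE 0.14). Psmc5, an ATPase of the cap, measured 503, 588 and 541 CPM at 48-54hpi, against 112, 123 and 126 CPM at 30-36hpi (adjusted p = 1.47e-15, log2 fold change of 2.18, SE 0.14). The 2 members that fell, Psme3 (adjusted p = 4.78e-06, log2 fold change of -0.87, SE 0.15) and Psme4 (adjusted p = 6.08e-18, log2 fold change of -2.40, SE 0.12), both encode alternative activators of the core; Psme4 measured 47.7, 46.7 and 56 CPM at 48-54hpi, against 254, 303 and 239 CPM at 30-36hpi. Of the chaperones, 21 of 29 tested members were called higher and 3 lower (median log2 fold change 1.09; 18 and 3 under all 4 scalings). Hspa8, the constitutive Hsp70 of the cytosol, had the largest gain in CPM of the genes ranked by the naming rule, at 10566, 12006 and 11598 CPM at 48-54hpi, against 1638, 1959.7 and 1950.5 CPM at 30-36hpi (adjusted p = 7.95e-18, log2 fold change of 2.62, SE 0.14). Hsp90ab1 measured 5007, 5218 and 5181 CPM at 48-54hpi, against 890.3, 914 and 1028 CPM at 30-36hpi (adjusted p = 6.29e-19, log2 fold change of 2.44, SE 0.12). Cct7, of the chaperonin that folds actin and tubulin, measured 1195, 1361 and 1225 CPM at 48-54hpi, against 149.9, 156 and 167 CPM at 30-36hpi (adjusted p = 1.69e-17, log2 fold change of 3.00, SE 0.16). Of the autophagy genes, 25 of 32 tested members were called higher and 4 lower (median log2 fold change 0.98; 16 and 4 under all 4 scalings). Tfeb, a regulator of the pathway, measured 36.9, 27.2 and 23.3 CPM at 48-54hpi, against 0.705, 1.24 and 0.627 CPM at 30-36hpi (adjusted p = 3.04e-13, log2 fold change of 5.03, SE 0.38). The cargo receptor Sqstm1 rose too (adjusted p = 3.27e-11, log2 fold change of 2.11, SE 0.20).

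Splicing factors were more often higher, while mRNA decay and transcription genes held calls on both sides. Of the splicing factors, 39 of 56 tested members were called higher and 2 lower (median log2 fold change 0.70; 26 and 2 under all 4 scalings). Srsf3 averaged 1224 ± 70.3 CPM at 48-54hpi and 161 ± 32.5 CPM at 30-36hpi (adjusted p = 1e-18, log2 fold change of 2.93, SE 0.14). Srsf10 fell (adjusted p = 1.86e-10, log2 fold change of -1.11, SE 0.11). Of the mRNA decay genes, 15 of 40 tested members were called higher and 12 lower (median log2 fold change 0.05, with 11 and 12 under all 4 scalings). That is 37.5% and 30%, beside 28.7% and 33.3% of all genes tested, and nothing is read from these counts. The deadenylase subunits Cnot6l (adjusted p = 6.2e-14, log2 fold change of -2.44, SE 0.18) and Cnot7 (adjusted p = 1.82e-11, log2 fold change of -1.38, SE 0.13) and the decapping enzyme Dcp2 (adjusted p = 5.31e-19, log2 fold change of -2.90, SE 0.14) fell along with Btg4. These were picked from the 12 falls, and the 15 rises are not named here. Log2 fold changes of the list ran from -4.36 to 3.11. Of the RNA polymerase II and general factors, 29 of 58 tested members were called higher and 12 lower (median log2 fold change 0.39; 13 and 12 under all 4 scalings); the falls included Taf3 (adjusted p = 1.54e-16, log2 fold change of -2.69, SE 0.16) and Gtf2a1 (adjusted p = 2.68e-18, log2 fold change of -2.86, SE 0.14). With total counts 13 of these were higher and 23 lower. Log2 fold changes of that list ran from -2.86 to 1.71, and its rises are not named here. Of the nuclear pore genes, 12 of 28 tested members were called higher and 6 lower (median log2 fold change 0.25; 11 and 6 under all 4 scalings).

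**Figure D2:**
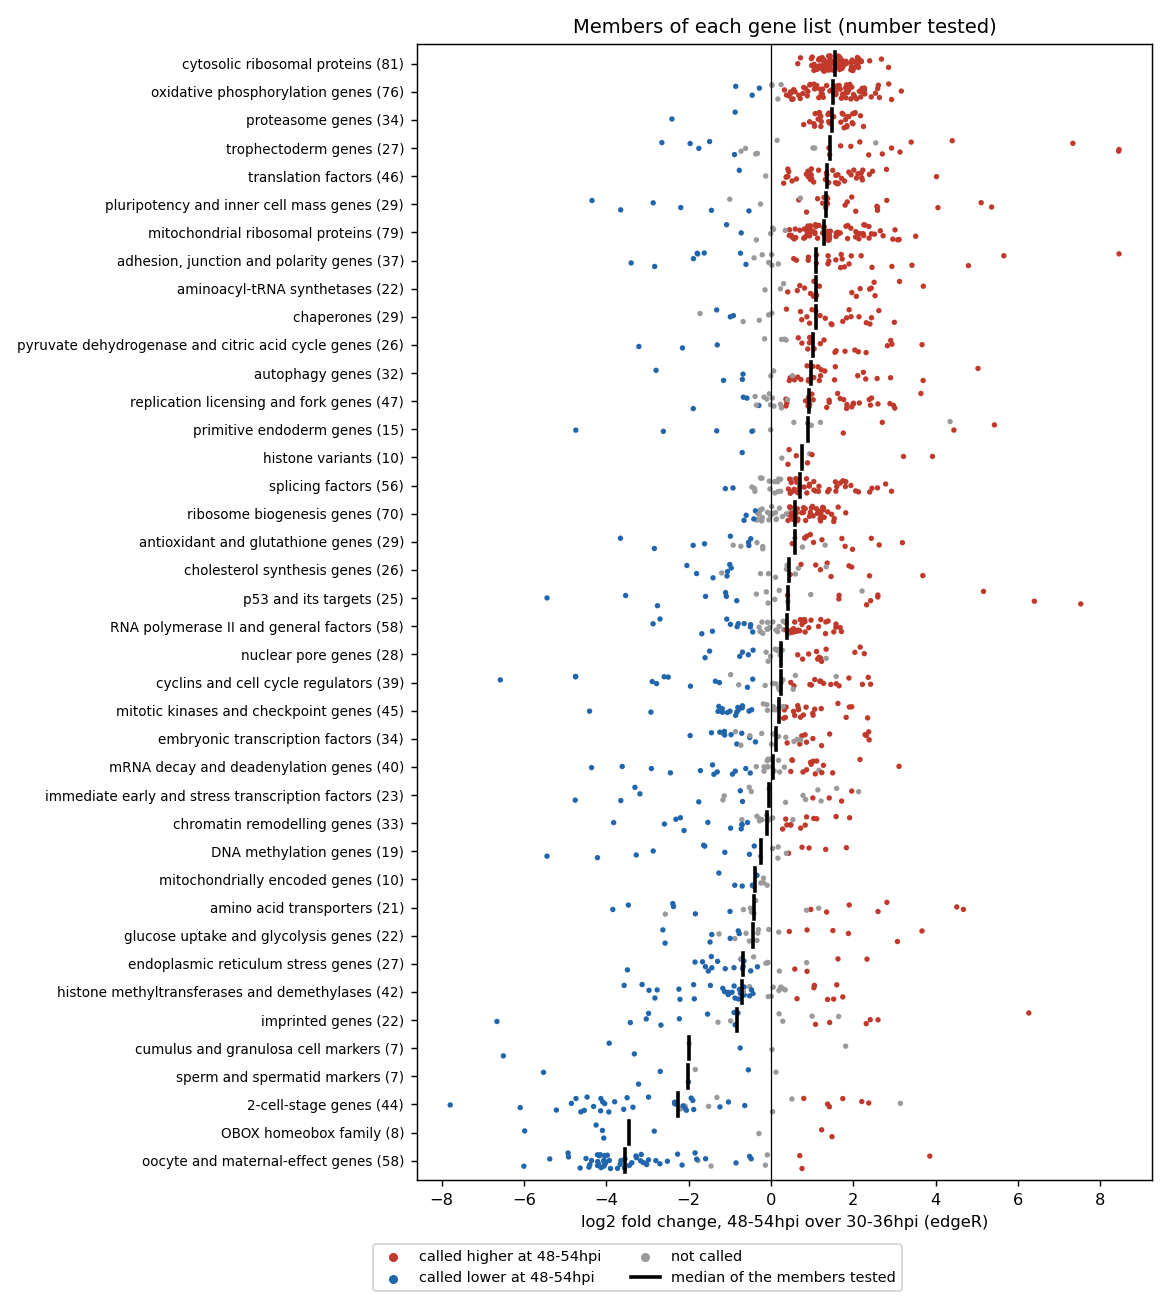
Each point is a tested member of a gene list at its log2 fold change (48-54hpi over 30-36hpi), red where called higher, blue where called lower and grey where not called, and black bars are medians. Lists run from oocyte genes at the bottom (median -3.55) to cytosolic ribosomal proteins at the top (median 1.56), where all 81 points are red.

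DNA replication genes were more often higher, while cell cycle genes moved in both directions. Of the replication licensing and fork genes, 32 of 47 tested members were called higher and 4 lower (median log2 fold change 0.93; 28 and 4 under all 4 scalings). Mcm5, a subunit of the replicative helicase, measured 158, 168 and 138 CPM at 48-54hpi, against 16.4, 19.9 and 21.2 CPM at 30-36hpi (adjusted p = 3.71e-15, log2 fold change of 3.01, SE 0.20). Tyms, thymidylate synthase, measured 346, 387 and 372 CPM at 48-54hpi, against 64.6, 71.6 and 66.5 CPM at 30-36hpi (adjusted p = 8.13e-17, log2 fold change of 2.45, SE 0.14). Dbf4, the activator of the kinase that fires origins, fell to 142, 148 and 142 CPM at 48-54hpi, against 539.5, 550.3 and 509.9 CPM at 30-36hpi (adjusted p = 2.57e-18, log2 fold change of -1.89, SE 0.09). Of the cyclins and cell cycle regulators, 15 of 39 tested members were called higher and 12 lower (median log2 fold change 0.25, with 11 and 12 under all 4 scalings). That is 38.5% and 30.8%, beside 28.7% and 33.3% of all genes tested, and nothing is read from these counts. Ccnb1, cyclin B1, averaged 3795 ± 212 CPM at 48-54hpi and 1920.0 ± 133 CPM at 30-36hpi (adjusted p = 6.13e-08, log2 fold change of 0.98, SE 0.13). Ccnb2 averaged 208 ± 9.03 CPM at 48-54hpi and 40.4 ± 0.565 CPM at 30-36hpi (adjusted p = 1.87e-15, log2 fold change of 2.37, SE 0.15). Ccnd1, a cyclin of G1, rose and averaged 31.2 ± 5.67 CPM at 48-54hpi and 6.7 ± 2.22 CPM at 30-36hpi (adjusted p = 1.11e-05, log2 fold change of 2.22, SE 0.40). The inhibitor Rb1 fell to 31.2, 9.79 and 18.4 CPM at 48-54hpi, against 118, 137 and 106 CPM at 30-36hpi (adjusted p = 4.53e-12, log2 fold change of -2.59, SE 0.22). Of the mitotic kinases and checkpoint genes, 21 of 45 tested members were called higher and 16 lower (median log2 fold change 0.19; 11 and 16 under all 4 scalings), Cenpf of the kinetochore falling (adjusted p = 1.41e-19, log2 fold change of -2.91, SE 0.13).

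Genes of p53 and its targets had mixed calls: 10 of 25 tested members were called higher and 7 lower (median log2 fold change 0.40, with 8 and 7 under all 4 scalings). That is 40% and 28%, beside 28.7% and 33.3% of all genes tested, and nothing is read from these counts. The activity of p53 was not tested. Trp53 itself averaged 119 ± 11.7 CPM at 48-54hpi and 103 ± 7.55 CPM at 30-36hpi and was not called (adjusted p = 0.202, log2 fold change of 0.20, SE 0.14). The members named here are a selection, and the 7 falls are named only in part. Mdm4, given above, and Mdm2 (adjusted p = 6.74e-09, log2 fold change of -1.08, SE 0.13), inhibitors of p53, were lower. The targets Cdkn1a (adjusted p = 5.27e-10, log2 fold change of 1.66, SE 0.18), Ccng1 (adjusted p = 8.02e-12, log2 fold change of 2.42, SE 0.22), Bax (adjusted p = 1.34e-11, log2 fold change of 2.60, SE 0.24) and Perp (adjusted p = 1.09e-17, log2 fold change of 6.40, SE 0.33) were among the 10 members that rose. Gadd45a, another target, fell to 0.843, 0.625 and 0.893 CPM at 48-54hpi, against 40.1, 34.3 and 29.7 CPM at 30-36hpi (adjusted p = 2e-13, log2 fold change of -5.44, SE 0.42).

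Pluripotency genes were more often higher. Of them, 20 of 29 tested members were called higher and 6 lower (median log2 fold change 1.33; 17 and 6 under all 4 scalings). Nanog, a core factor of the inner cell mass, measured 45.9, 34.9 and 49.5 CPM at 48-54hpi, against 2.82, 0.696 and 0.314 CPM at 30-36hpi (adjusted p = 1.55e-09, log2 fold change of 5.11, SE 0.50). Pou5f1, which encodes OCT4, measured 22.5, 26 and 18.5 CPM at 48-54hpi, against 2.52, 4.25 and 4.28 CPM at 30-36hpi (adjusted p = 2.31e-11, log2 fold change of 2.59, SE 0.24). Tdgf1, a co-receptor for Nodal, measured 333, 295 and 418 CPM at 48-54hpi, against 6.64, 13.5 and 4.81 CPM at 30-36hpi (adjusted p = 2.32e-14, log2 fold change of 5.36, SE 0.34). The 3 genes were higher in every 48-54hpi library. Pou5f1 had averaged 29.6 CPM in MII oocytes. Fbxo15, a target of OCT4, measured 3219, 3456 and 3180.0 CPM at 48-54hpi, against 645, 738 and 979.6 CPM at 30-36hpi (adjusted p = 6.16e-14, log2 fold change of 2.06, SE 0.15). Prdm1, Nodal, Zfp57, Fgf4, Klf4 and Lin28b fell, Fgf4 to 25.8, 13.5 and 19.1 CPM at 48-54hpi, against 102, 86.1 and 79 CPM at 30-36hpi (adjusted p = 1.61e-07, log2 fold change of -2.19, SE 0.30). Sox2 averaged 0.0684 ± 0.0599 CPM at 48-54hpi and 0.137 ± 0.158 CPM at 30-36hpi and was not called, its libraries being near 0 in both groups.

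Of the trophectoderm genes, which mark the outer cells, 14 of 27 tested members were called higher and 5 lower (median log2 fold change 1.43). Cldn4, a tight junction claudin, measured 32.8, 38.7 and 40.0 CPM at 48-54hpi, against 0.201, 0 and 0.105 CPM at 30-36hpi; the 30-36hpi libraries held 3 reads of it in all, so no fold is given (adjusted p = 2.85e-14). The keratin genes rose: Krt8 averaged 62.2 ± 16.2 CPM at 48-54hpi and 3.02 ± 1.73 CPM at 30-36hpi (adjusted p = 1.42e-08, log2 fold change of 4.41, SE 0.44). Krt18 averaged 104 ± 29.4 CPM at 48-54hpi and 9.73 ± 4.08 CPM at 30-36hpi (adjusted p = 7.88e-07, log2 fold change of 3.41, SE 0.42). Tead4, the factor that turns on trophectoderm genes, measured 313, 246 and 231 CPM at 48-54hpi, against 35.1, 56.6 and 60.3 CPM at 30-36hpi (adjusted p = 3.71e-11, log2 fold change of 2.38, SE 0.22). Gata3 averaged 14.8 ± 4.27 CPM at 48-54hpi and 3.79 ± 0.805 CPM at 30-36hpi (adjusted p = 4.66e-09, log2 fold change of 1.94, SE 0.23). Cdx2, the lineage's defining factor, averaged 0.255 ± 0.363 CPM at 48-54hpi and 0.0348 ± 0.0603 CPM at 30-36hpi and was not called. Of the primitive endoderm genes, 4 of 15 tested members were called higher and 4 lower (median log2 fold change 0.89), counts near or below the 28.7% and 33.3% of all genes tested. Gata6 measured 123, 149 and 104 CPM at 48-54hpi, against 3.42, 4.1 and 0.941 CPM at 30-36hpi (adjusted p = 1.3e-13, log2 fold change of 5.43, SE 0.37). Sox17 averaged 0.0719 ± 0.0624 CPM at 48-54hpi and 0.0348 ± 0.0603 CPM at 30-36hpi and Gata4 averaged 49 ± 9.36 CPM at 48-54hpi and 66.2 ± 4.65 CPM at 30-36hpi, neither being called.

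Genes of adhesion, junctions and polarity, the machinery of compaction, were more often higher: 23 of 37 tested members were called higher and 8 lower (median log2 fold change 1.11; 19 and 8 under all 4 scalings). Cdh1, E-cadherin, averaged 109.5 ± 6.89 CPM at 48-54hpi and 41.3 ± 4.21 CPM at 30-36hpi (adjusted p = 2.01e-10, log2 fold change of 1.41, SE 0.15). Cldn7, a claudin, measured 149.8, 113 and 147 CPM at 48-54hpi, against 4.03, 2.32 and 1.78 CPM at 30-36hpi (adjusted p = 6.41e-16, log2 fold change of 5.66, SE 0.34). Amotl2, which restrains YAP at junctions, measured 71, 46 and 66.6 CPM at 48-54hpi, against 6.04, 0.0773 and 0.732 CPM at 30-36hpi (adjusted p = 3.17e-06, log2 fold change of 4.80, SE 0.68). The falls included parts of the apical machinery: Pard3, a polarity scaffold, measured 11.6, 15.6 and 10.6 CPM at 48-54hpi, against 117, 143 and 138 CPM at 30-36hpi (adjusted p = 9.54e-20, log2 fold change of -3.39, SE 0.15). Rdx, which links actin to the membrane, averaged 54.6 ± 13.8 CPM at 48-54hpi and 189 ± 27.9 CPM at 30-36hpi (adjusted p = 4.33e-13, log2 fold change of -1.79, SE 0.14). Rdx had averaged 5432 CPM in MII oocytes.

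Of the embryonic transcription factors, 12 of 34 tested members were called higher and 10 lower (median log2 fold change 0.12, with 6 and 10 under all 4 scalings). That is 35.3% and 29.4%, beside 28.7% and 33.3% of all genes tested, and nothing is read from these counts. Dppa2, which takes part in genome activation, averaged 2308 ± 49.9 CPM at 48-54hpi and 983 ± 40.6 CPM at 30-36hpi (adjusted p = 5.47e-11, log2 fold change of 1.23, SE 0.12). Tfap2c averaged 166 ± 25.5 CPM at 48-54hpi and 61.7 ± 5.41 CPM at 30-36hpi (adjusted p = 2.74e-09, log2 fold change of 1.43, SE 0.17). Klf5 measured 118, 126 and 106 CPM at 48-54hpi, against 27.2, 23 and 21.6 CPM at 30-36hpi (adjusted p = 3.86e-08, log2 fold change of 2.29, SE 0.28). Klf17, the gene that another experiment of the series knocks out, measured 349.5, 241 and 218 CPM at 48-54hpi, against 409, 397 and 516 CPM at 30-36hpi (adjusted p = 0.0212, log2 fold change of -0.71, SE 0.26). The groups did not overlap, but the adjusted p was 0.0916 without 30-36hpi replicate 3. At 70-76hpi Klf17 averaged 15.8 CPM.

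The largest rises by fold were of genes of varied roles. Vnn1, a pantetheinase that returns vitamin B5 from coenzyme A breakdown, measured 223, 363 and 465 CPM at 48-54hpi, against 0.201, 0.155 and 0.105 CPM at 30-36hpi (adjusted p = 3.97e-12, log2 fold change of 11.03, SE 0.67). It was near 0 in every group up to 30-36hpi and averaged 407 CPM at 70-76hpi. Ly6a, a surface antigen, measured 66, 91.8 and 62.2 CPM at 48-54hpi, against 0.705, 0 and 0 CPM at 30-36hpi. Aqp3, a water and glycerol channel that is also in the trophectoderm list, measured 42.3, 46 and 53.8 CPM at 48-54hpi, against 0.503, 0 and 0.418 CPM at 30-36hpi (adjusted p = 9.13e-12, log2 fold change of 7.34, SE 0.58). Smpdl3a, a phosphodiesterase of the acid sphingomyelinase family, measured 97.7, 112 and 93.1 CPM at 48-54hpi, against 1.61, 0.85 and 0.314 CPM at 30-36hpi (adjusted p = 7.3e-13, log2 fold change of 6.75, SE 0.51). AC154266.1, Serpinb6a, Olfr1459, Gsta1, Zap70 and Perp, the last of them a listed p53 target, were also among the 12 largest rises. Among the 8 largest rises in CPM, Alppl2, an alkaline phosphatase of early embryos, measured 5187, 5351 and 5171 CPM at 48-54hpi, against 1319, 1374 and 1591 CPM at 30-36hpi (adjusted p = 0.000468, log2 fold change of 1.87, SE 0.41). Timd2, a membrane receptor, measured 4531, 4965 and 4771 CPM at 48-54hpi, against 1287, 1332 and 1277 CPM at 30-36hpi (adjusted p = 0.00844, log2 fold change of 1.87, SE 0.58), though the adjusted p of Timd2 was 0.0763 in DESeq2's Wald test.

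X inactivation and imprinted genes were few. Xist, the RNA that coats the inactive X, measured 93.6, 81.4 and 142 CPM at 48-54hpi, against 11.7, 7.34 and 11.4 CPM at 30-36hpi (adjusted p = 2.63e-08, log2 fold change of 3.39, SE 0.40). Its activator Rlim fell to 204, 181 and 208 CPM at 48-54hpi, against 410.1, 358 and 554 CPM at 30-36hpi (adjusted p = 2.53e-08, log2 fold change of -1.16, SE 0.15). Ftx averaged 2.23 ± 0.826 CPM at 48-54hpi and 1.88 ± 0.821 CPM at 30-36hpi and was not called (adjusted p = 0.781, log2 fold change of 0.23, SE 0.66). Of 560 tested genes on chromosome X, 26.6% were higher and 36.8% lower, beside 29.7% and 33% of the 15047 tested genes with a chromosome in RefSeq. Of the imprinted genes, 6 of 22 tested members were called higher and 10 lower (median log2 fold change -0.84). Mest fell and averaged 19.7 ± 6.09 CPM at 48-54hpi and 125 ± 15.3 CPM at 30-36hpi (adjusted p = 2.64e-08, log2 fold change of -2.67, SE 0.30). Usp29 fell and averaged 45.9 ± 7.33 CPM at 48-54hpi and 360.1 ± 62.7 CPM at 30-36hpi (adjusted p = 5.69e-16, log2 fold change of -2.97, SE 0.18). The genes Igf2r (adjusted p = 5.69e-05, log2 fold change of 1.08, SE 0.22) and Snrpn (adjusted p = 2.8e-09, log2 fold change of 1.43, SE 0.17) rose.

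The remaining lists held calls on both sides, beside 28.7% higher and 33.3% lower of all genes tested, and nothing is read from a list near those shares. Of the amino acid transporters, 7 of 21 tested members were called higher and 6 lower (median log2 fold change -0.41); Slc1a1 averaged 304 ± 12.4 CPM at 48-54hpi and 119 ± 8.07 CPM at 30-36hpi (adjusted p = 0.000624, log2 fold change of 1.35, SE 0.31). Of the cholesterol synthesis genes, 10 of 26 tested members were called higher and 7 lower (median log2 fold change 0.43; 6 and 7 under all 4 scalings), with Msmo1 higher (adjusted p = 8.96e-13, log2 fold change of 2.40, SE 0.20) and Hmgcs1 lower (adjusted p = 3.63e-08, log2 fold change of -1.05, SE 0.14). Of the antioxidant and glutathione genes, 13 of 29 tested members were called higher and 8 lower (median log2 fold change 0.58; 11 and 8 under all 4 scalings), Prdx6 being higher (adjusted p = 5.68e-12, log2 fold change of 1.98, SE 0.18) and Prdx2 lower (adjusted p = 2.14e-11, log2 fold change of -1.61, SE 0.15). Of the immediate early and stress transcription factors, 4 of 23 tested members were called higher and 7 lower (median log2 fold change -0.04; 3 and 7 under all 4 scalings). By type of gene, of 495 tested long non-coding RNAs 43 (8.69%) were higher and 195 (39.4%) lower, while of 14421 protein-coding genes 30.5% were higher and 32.8% lower.

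Markers of cells that could accompany embryos were low. Of 17 cumulus and granulosa markers in the table, 7 were tested, 0 were called higher and 4 lower, and their summed level was 40.5, 42 and 58.8 CPM at 48-54hpi, against 89.9, 75.1 and 87.1 CPM at 30-36hpi. Most of that sum was Serpine2, which averaged 45.8 ± 8.74 CPM at 48-54hpi and 76.8 ± 6.97 CPM at 30-36hpi. Of 17 sperm and spermatid markers, 7 were tested, 0 were called higher and 5 lower, with a summed level of 48.7, 42.3 and 45.1 CPM at 48-54hpi, against 87.9, 93.8 and 81.5 CPM at 30-36hpi. Most of it was Odf2, at 37.9 ± 3.32 CPM at 48-54hpi and 55.5 ± 4.43 CPM at 30-36hpi. What these cells add to the changes in other genes was not tested. Among oocyte and 2-cell markers, Zp3 and Gdf9 were present in both groups and lower at 48-54hpi. Zscan4c averaged 0.361 ± 0.368 CPM at 48-54hpi and 6.29 ± 1.71 CPM at 30-36hpi.

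**Figure D3:**
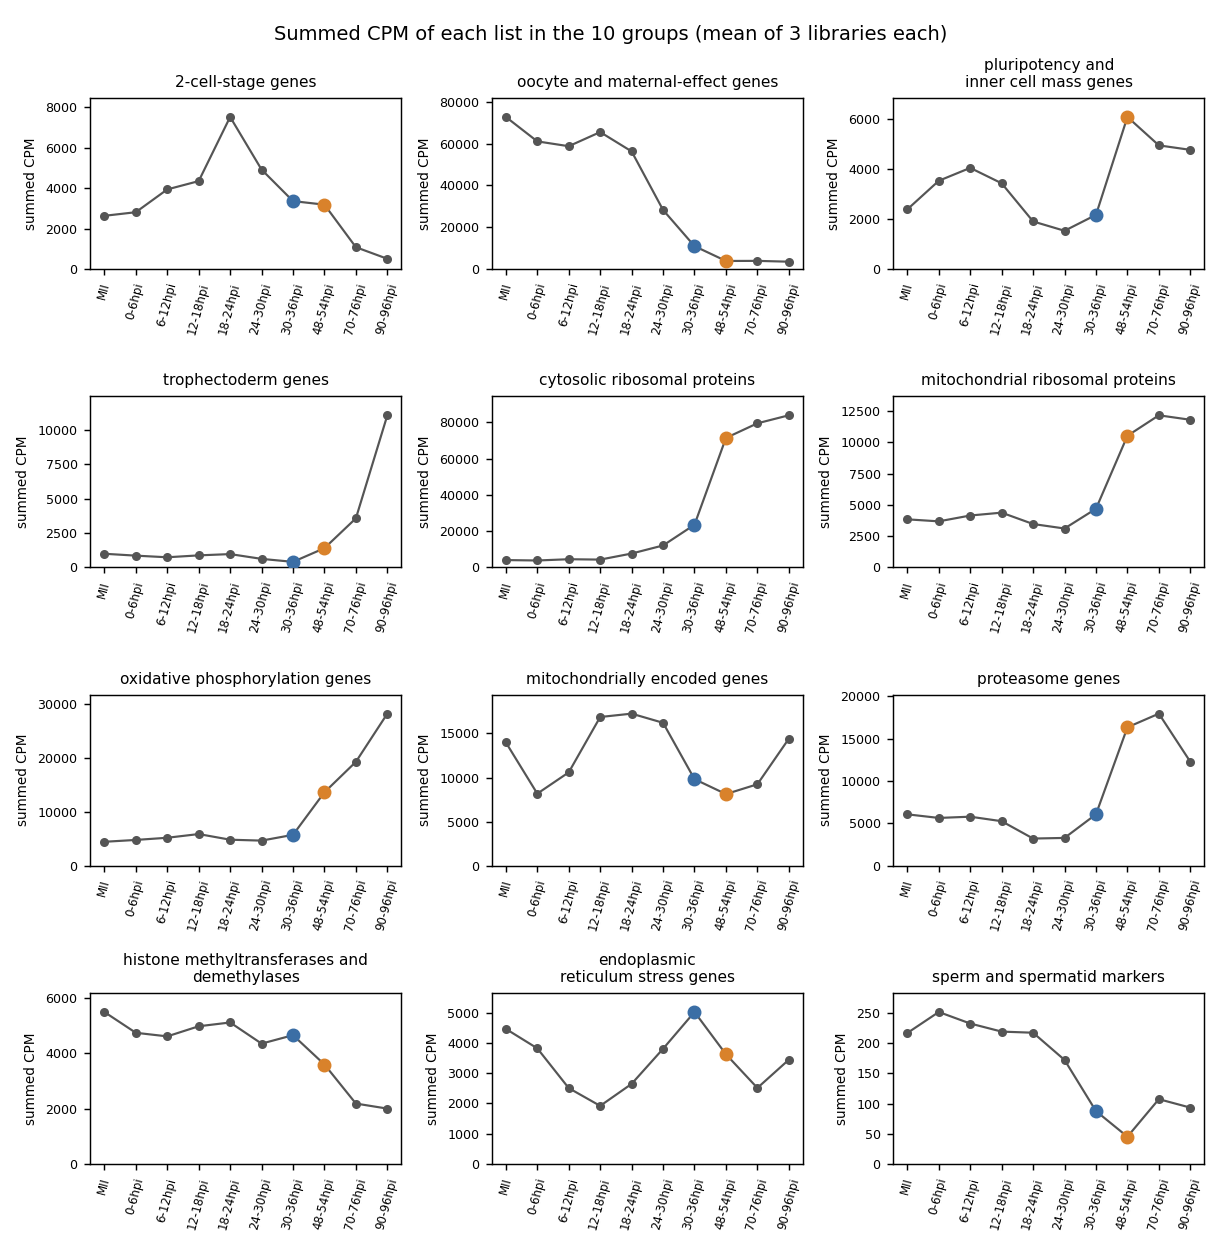
Summed CPM of 12 gene lists (y axes start at 0) in MII oocytes and the 9 windows, as the mean of 3 libraries, with 30-36hpi in blue and 48-54hpi in orange. Cytosolic ribosomal proteins, proteasome and oxidative phosphorylation genes step up between the coloured points, and oocyte genes reach 3859.8 CPM, against 10951 CPM at 30-36hpi and 72748 CPM in MII oocytes.

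Levels over all groups show where this step stands. Of the genes that were higher at 48-54hpi, 32.1% had their highest mean of the 10 groups at 48-54hpi, 21.9% at 70-76hpi, 26.1% at 90-96hpi, and 7.63% in MII oocytes. Over all genes tested these shares were 12.6%, 10.5%, 17.8% and 13.8%. The call uses the same libraries, so no gene called higher peaked at 30-36hpi and none called lower at 48-54hpi. Part of any difference from all genes tested is therefore fixed by the call. Impdh2 was among those that were highest at 48-54hpi: it averaged 175 CPM at 24-30hpi, 916 CPM at 30-36hpi, 4870.3 CPM at 48-54hpi and 1529 CPM at 70-76hpi. Of the genes that were lower, 22% had their highest mean in MII oocytes and 15.7% at 30-36hpi, beside 13.8% and 9.01% of all genes tested. Genes that were lower and peaked at 30-36hpi, such as Usp29, were thus fewer than those already past their highest level.

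Comparisons that share no library with this step were set beside it. During genome activation, 24-30hpi against 18-24hpi, 3412 genes (21%) rose and 3953 (24.4%) fell. Of those that rose, 39.4% were higher and 25.6% lower at 48-54hpi. Of those that fell, 29.2% were higher and 45.2% lower. Thus 875 genes rose with genome activation and were lower here, and 1154 fell and were higher here. The share of 25.6% is below the 33.3% of all genes tested that were lower, and 29.2% is near the 28.7% of all that were higher, so neither count is read as more than the background. The difference between the steps was itself tested: it was above 0 in 3542 genes (21.8%) and below 0 in 5287 (32.6%). Frg2f1 is 1 of the 875, with means of 48.9 CPM at 18-24hpi, 93.6 CPM at 24-30hpi, 118 CPM at 30-36hpi and 1.8 CPM at 48-54hpi. Between 12-18hpi and MII, 4537 genes (27.9%) rose and 2589 (15.9%) fell. Of these, 34.9% of the genes that rose and 30.4% of those that fell were higher here, and 32.2% and 41.4% were lower.

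At the end of culture, 90-96hpi against 70-76hpi, 3256 genes (20.1%) rose and 3166 (19.5%) fell. Of the genes that rose there, 22.9% were higher and 44.4% lower at 48-54hpi. Of the genes that fell there, 51.6% were higher and 20.8% lower. Over all genes tested the shares were 28.7% and 33.3%, and over genes not called there 23.1% and 33.7%. Pdha1, for example, averaged 1209 CPM at 48-54hpi, 833 CPM at 70-76hpi and 322 CPM at 90-96hpi.

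Klf17 knockout embryos, collected at what the design text calls the M2C stage, were measured in other libraries. Klf17 reads averaged 668 ± 62.8 CPM in the libraries labelled KO and 716 ± 108 CPM in ctrl libraries (adjusted p = 0.869, log2 fold change of -0.10, SE 0.30), so the read count does not set the groups apart, and the group is called here by its label. Of 15388 genes tested in both experiments, 1054 (6.85%) were lower and 293 (1.9%) higher in the libraries labelled KO than in the ctrl libraries. Of the genes lower in KO, 54.6% were higher and 18.6% lower at 48-54hpi than at 30-36hpi, beside 28.9% and 34.9% of all 15388. Of the genes higher in KO, 16.7% were higher and 56.7% lower at 48-54hpi. Read the other way, 12.9% of the genes that were higher at 48-54hpi were lower in KO. Hspa8 averaged 559.7 ± 27.3 CPM in the libraries labelled KO and 1601 ± 19.5 CPM in ctrl libraries (adjusted p = 0.0113, log2 fold change of -1.52, SE 0.30). Tead4 averaged 3.8 ± 1.04 CPM in the libraries labelled KO and 37.8 ± 6.13 CPM in ctrl libraries (adjusted p = 0.0108, log2 fold change of -3.31, SE 0.64). Impdh2 averaged 198 ± 28 CPM in the libraries labelled KO and 797 ± 123 CPM in ctrl libraries (adjusted p = 0.0139, log2 fold change of -2.01, SE 0.43). Zfp352 averaged 569 ± 79.4 CPM in the libraries labelled KO and 379 ± 66.9 CPM in ctrl libraries (adjusted p = 0.199, log2 fold change of 0.59, SE 0.28) and was not called there. Rpl5 averaged 167 ± 16 CPM in the libraries labelled KO and 205 ± 10.5 CPM in ctrl libraries (adjusted p = 0.512, log2 fold change of -0.30, SE 0.27). These embryos were collected at another stage than 48-54hpi embryos, and what that adds to these shares was not tested.

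**Figure D4:**
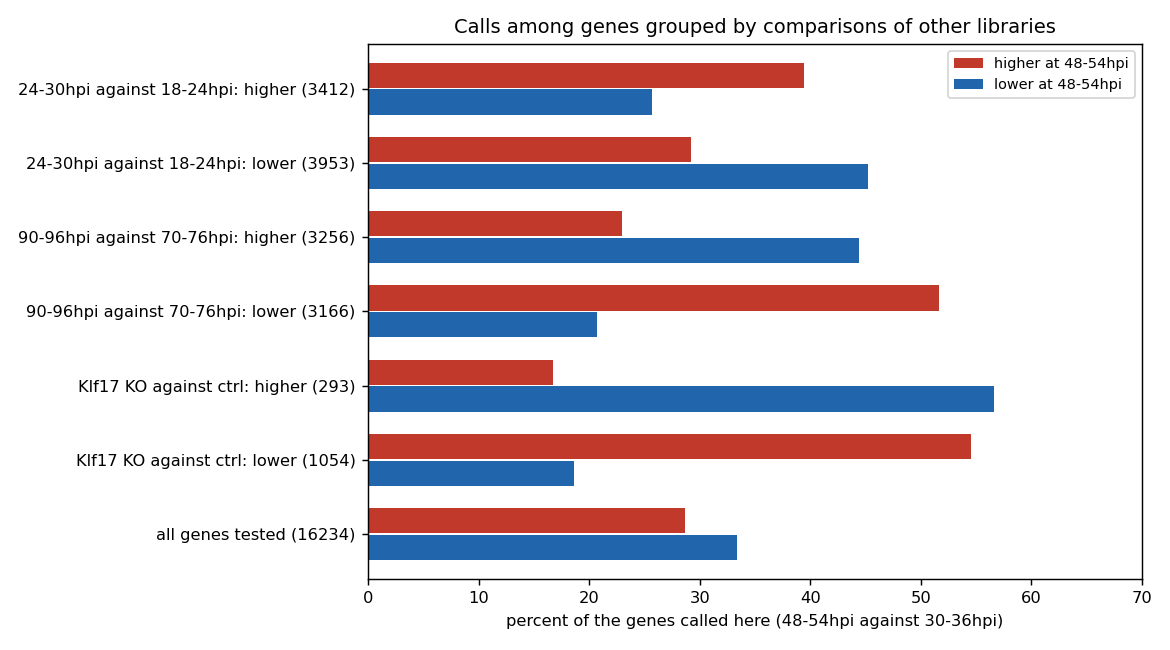
Percent of genes called higher (red) or lower (blue) at 48-54hpi against 30-36hpi, for genes grouped by their call in comparisons of other libraries, with the number of genes in each group. Genes lower in libraries labelled KO were higher here in 54.6% of cases, and genes that fell from 70-76hpi to 90-96hpi in 51.6%.

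The motif of ETS-family factors (CCGGAAG, or CTTCCGG on the other strand) stood in 24.5% of 2881 promoters of genes that were higher at 48-54hpi, in 12.8% of 3132 promoters of genes that were lower, and in 16.7% of all 9621. In the genes that fell at least 8-fold it stood in 4.09%, and in those that rose at least 8-fold in 11.5%. Median GC content was 60% and 60.3% in the higher and lower sets, and the median number of CpG was 20 in both. In the 8-fold sets the median number of CpG was 14 among rises and 10 among falls, so those sets also differ from the rest in composition. By list, the motif stood in 21 of 51 promoters of cytosolic ribosomal protein genes (41.2%), 11 of 26 of proteasome genes (42.3%), 24 of 66 of mitochondrial ribosomal protein genes (36.4%), 2 of 42 of oocyte genes (4.76%) and 0 of 21 of 2-cell-stage genes. The lists were not tested for this. It was also in 41.5% of the promoters of RNA polymerase II and general factors, a list of mixed direction. Gabpa, an ETS factor, measured 253, 288 and 307 CPM at 48-54hpi, against 534, 639 and 674 CPM at 30-36hpi (adjusted p = 0.00314, log2 fold change of -1.12, SE 0.31).

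The promoters of 4 genes with the motif are shown: 3 of genes of protein synthesis that were higher at 48-54hpi, and that of Psme4, which was lower. They come from RefSeq on build GRCm38.p6 and cover the same 300 bases around the start, with ETS and paired-like homeobox matches in capitals. Mrps18a lies at chr17:46110754-46111053 on the plus strand, Eef1b2 at chr1:63176581-63176880 on the plus strand, Eif3d at chr15:77970775-77971074 on the minus strand, and Psme4 at chr11:30771525-30771824 on the plus strand.
Mrps18a: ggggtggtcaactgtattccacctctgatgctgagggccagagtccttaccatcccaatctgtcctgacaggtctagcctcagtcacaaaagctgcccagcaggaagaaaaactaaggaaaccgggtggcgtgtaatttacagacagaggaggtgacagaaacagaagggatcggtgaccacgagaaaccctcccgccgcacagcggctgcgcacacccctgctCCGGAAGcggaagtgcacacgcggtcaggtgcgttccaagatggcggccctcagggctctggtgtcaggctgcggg
Eef1b2: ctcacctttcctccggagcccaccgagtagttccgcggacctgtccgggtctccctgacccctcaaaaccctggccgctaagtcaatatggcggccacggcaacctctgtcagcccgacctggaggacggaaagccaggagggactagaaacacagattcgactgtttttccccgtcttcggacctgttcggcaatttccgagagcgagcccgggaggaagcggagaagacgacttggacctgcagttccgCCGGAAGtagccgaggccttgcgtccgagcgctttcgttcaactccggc
Eif3d: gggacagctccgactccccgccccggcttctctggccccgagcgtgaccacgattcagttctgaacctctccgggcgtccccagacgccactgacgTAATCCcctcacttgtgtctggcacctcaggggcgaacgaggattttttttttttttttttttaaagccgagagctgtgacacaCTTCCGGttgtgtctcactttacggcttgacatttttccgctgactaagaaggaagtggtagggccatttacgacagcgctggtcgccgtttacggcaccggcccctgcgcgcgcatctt
Psme4: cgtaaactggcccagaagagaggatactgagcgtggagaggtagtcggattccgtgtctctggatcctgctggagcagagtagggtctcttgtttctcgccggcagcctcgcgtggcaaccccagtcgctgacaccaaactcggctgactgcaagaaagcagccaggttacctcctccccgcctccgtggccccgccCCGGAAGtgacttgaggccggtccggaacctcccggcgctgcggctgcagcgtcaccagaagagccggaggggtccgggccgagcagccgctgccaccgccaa
The ETS match begins 26 bases before the start in Mrps18a, 70 bases before it in Eif3d on the other strand, 53 bases before it in Psme4, and just past it in Eef1b2. Eif3d, a cap-binding subunit of initiation factor eIF3, measured 583, 659.6 and 590.1 CPM at 48-54hpi, against 70.4, 95.2 and 96.1 CPM at 30-36hpi (adjusted p = 6.16e-17, log2 fold change of 2.81, SE 0.16). Eef1b2, of the exchange factor of eEF1A, measured 652, 796 and 717 CPM at 48-54hpi, against 117, 133 and 162 CPM at 30-36hpi (adjusted p = 1.44e-18, log2 fold change of 2.39, SE 0.12).

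The 6 remaining motifs, also searched on both strands, differed less than the ETS motif between all genes called higher and all called lower. The E-box (CACGTG) stood in 11.4% of the promoters of genes that were higher, 8.75% of those that were lower and 9.58% of all. NF-Y (CCAAT) stood in 38.1%, 42.2% and 39.9% of the same sets, the GC box (GGGCGG) in 63.3%, 59.2% and 59.7%, the KLF motif (CACACCC) in 8.33%, 9.1% and 8.86%, the TATA box in 7.39%, 8.49% and 8.46%, and the NR5A motif (CAAGGTCA) in 0.902%, 0.99% and 1.12%. Among the genes past 8-fold, the GC box stood in 53% of the promoters of those higher and 44.3% of those lower. Overlaps between motifs were not removed.

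**Figure D5:**
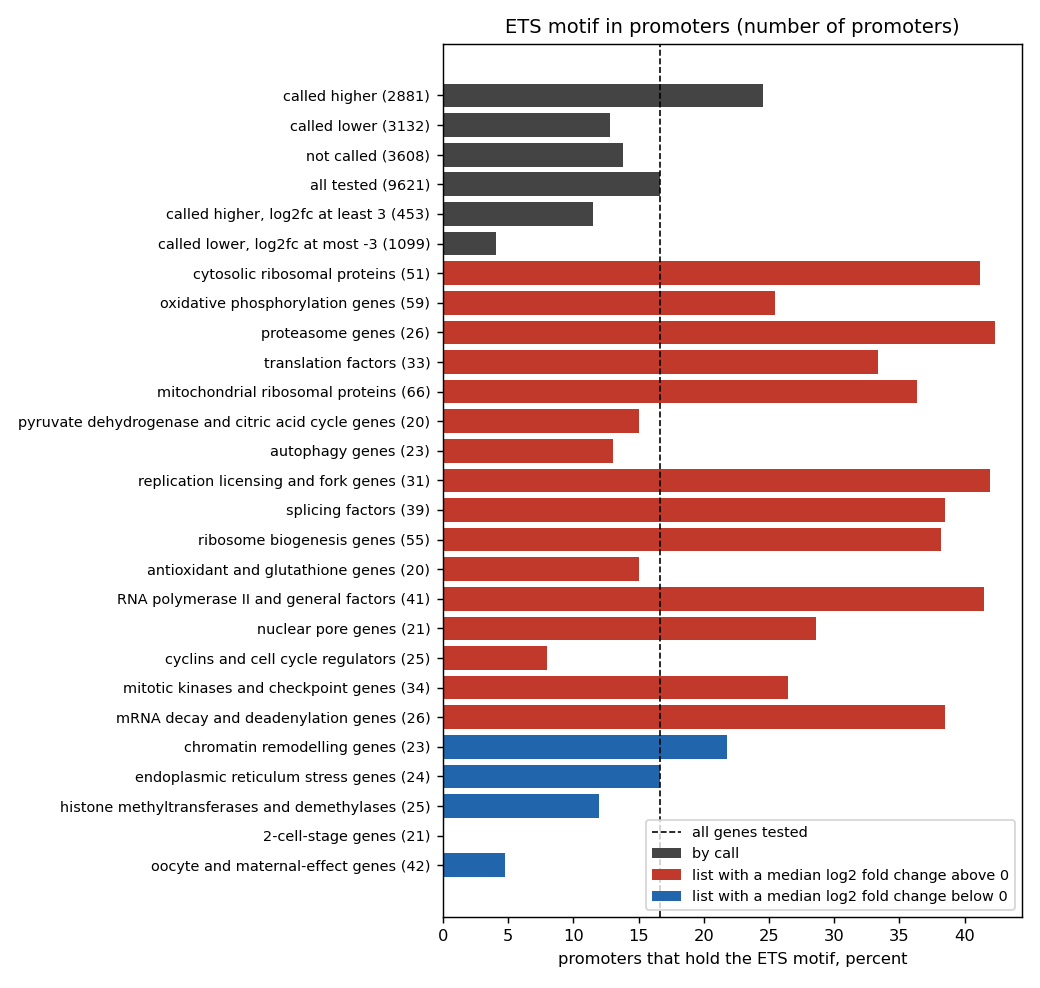
Percent of promoters that hold the ETS motif, by call (dark bars) and by gene list with at least 20 promoters (red where the list's median log2 fold change is above 0, blue where it is below), with all genes tested as a dashed line at 16.7%. Cytosolic ribosomal protein, proteasome and replication genes stand above 40%, and 2-cell-stage and oocyte genes below 5%.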

How the data were processed

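SLAM-seq libraries of mouse embryos were read from the deposited table, which holds read counts per gene, per the file headers. One record was damaged and was left out. Because of it a column of 90-96hpi held a value that was not whole, and that deposited column was treated as estimated counts and rounded. The labels and the submitters' processing notes name Trim Galore 0.6.10, STAR 2.7.10a, SAMtools 1.12, deepTools 3.5.4, Picard 2.20.4 and Bowtie2 2.4.2, with build mm10 (GRCm38). The counting program and its use of strand are not given in the sources used here, so reads of a gene and an overlapping or antisense gene cannot be told apart.

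All 30 window libraries were fitted together with edgeR 4.0.16 in R 4.3.3 (genes filtered at 10 reads per library and 15 in all with filterByExpr, TMM factors, quasi-likelihood test, robust, two-sided). Calls have a Benjamini-Hochberg adjusted p below 0.05, and the SE is the size of the log2 fold change over the root of F. The deposited counts of the Klf17 experiment were fitted apart, with 11 libraries. Named genes have at least 20 CPM in the higher group, a call and no overlap between groups: the 12 highest and 12 lowest by fold, the 8 largest rises and 8 largest falls in CPM, up to 4 members per list with the smallest adjusted p, lists of 5 or fewer whole, and Klf17. Ranks by fold and by CPM leave out Gm, Rik, pseudogene and mitochondrial symbols and bare Ensembl IDs. Other named list members, and the promoters shown, were chosen after their values were seen. The members and lists were chosen with earlier results of these data known. On simulated data for this comparison (16234 genes), 82% of 50 genes raised 2-fold and 100% of 50 raised 4-fold were called. Of 50 genes lowered 2-fold 78% were called, of 50 lowered 4-fold 100%, and of the unchanged genes 9. The changed genes had at least 20 CPM and all others were left equal, unlike in the real libraries. Recovery there is thus no measure of power or error in this comparison. Alternatives were other scalings, filters, tools and samples, thinned counts, and leaving out each library. DESeq2 1.42.0 gave the Wald test and size factors. Replicate numbers did not pair the libraries. The other deposited tables are not analysed here. Figures were drawn with matplotlib 3.10.9.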

Additional observations from a re-analysis of the deposited data

How the results depend on the processing

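The numbers of genes called higher (4653) and lower (5411) stayed within 1.5 times under every alternative run, from 3352 (total count scaling) to 4707 (no low-count filter) higher and from 4477 (only the 6 libraries) to 6977 (total count scaling) lower. DESeq2's Wald test called 4537 higher and 5675 lower. The share of calls that were higher was 46.2% and became 32.45% with total count scaling. The median log2 fold change of all genes tested was -0.19. It was -0.665 with total count scaling, 0.0 with no low-count filter, -0.0734 with only the 6 libraries, and -0.474 with TMM factors against another reference library, an alternative chosen after seeing the data. Leaving out each library in turn gave medians from -0.526 to -0.0911, with 3570 to 4489 genes higher and 5143 to 6078 lower. The lower medians came from leaving out any 48-54hpi library, when edgeR chose another reference library. With the scaling of all 30 libraries kept, a setting added after seeing the data, they ran from -0.233 to -0.106.

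The replicate block called 4604 genes higher and 5369 lower (median log2 fold change -0.187). Deviations of same-numbered libraries correlated at -0.0226, 0.0187 and 0.0141, so the shared numbers are not a pairing. Of 179 genes named by rule, 169 stayed on the same side of the threshold under all 21 alternatives and 0 reversed. Myc lost its call when 48-54hpi replicate 3 was left out (adjusted p = 0.0529) and under scaling by total counts (0.056), and Klf17 lost it without 30-36hpi replicate 3 (edgeR, adjusted p = 0.0916; 0.0749 to 0.0905 in 3 settings with scaling kept). Libraries thinned to the smallest total gave 4554 higher and 5372 lower.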
